A study of Mus musculus with 6 samples.

Results

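Tm4sf1 and 9 genes of the tetraspanin family (Cd9, Cd63, Cd81, Cd82, Cd151, Cd37, Cd53, Tspan13 and Tspan32) were followed in hematopoietic stem cells of aged and young mice. They are 10 of the 24091 genes in the deposited count table and were taken from it by their symbols. The 10 symbols were selected on membership of these families, with the measured difference between aged and young libraries of these same data already known, so that difference is given below as a description. Whether each of the 10 was called in the fit over all genes is noted beside its values and supports nothing further, and no p is given for them. RNA was sequenced from cells sorted from wild-type mice as lineage-Sca-1+c-Kit+CD150+CD48-, the marker combination commonly used for mouse stem cells. The 3 aged samples came from mice of 20 months, pooled from 4 animals, and the 3 young samples from mice of 2 months, pooled from 30 animals. The submitters' text does not say whether these animals were split over the samples of a group or pooled for each sample. It gives neither strain nor sex. Since separate animals are not assured, p-values measure the spread between these samples, which may be technical in part. Each library is named by its age group and replicate number, aged 1 to 3 and young 4 to 6.

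Tetraspanins are small proteins that cross the membrane several times and bind one another, integrins and other receptors in patches of the cell surface called tetraspanin-enriched microdomains. Several of them also travel through endosomes and mark the small vesicles that cells release. In blood cells they are studied for adhesion, migration and signalling, and Cd9, Cd63, Cd81 and Cd82 are familiar surface or endosome markers of hematopoietic cells. Tm4sf1 has the same number of membrane spans but belongs to a separate family, the L6 proteins. It is best known from tumour cells and from the endothelium, where it sits in the same kind of membrane patch.

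The sequence before the start of transcription differed in base composition between Tm4sf1 and most of the tetraspanins. All 10 genes were matched by symbol to RefSeq promoters on GRCm38.p6, the assembly of mm10, and the 250 bases before the RefSeq start are used here. For Tm4sf1 that start lies 69 bases from the 5′ end of the gene in the count table. The distance is 5 bases for Cd9, 426 for Cd63 and 276 for Cd37, and 0 for the others. The Cd63 and Cd37 windows lie wholly inside the gene as given in the count table. Tm4sf1, Cd82, Tspan13 and Cd9 are shown because their libraries did not overlap between the age groups. They are written 5′ to 3′ on the strand of the gene, and capitals mark matches to short motifs that are spelled out with their counts further on. All 4 genes lie on the minus strand, and the windows are chr3:57301989-57302238 for Tm4sf1, chr2:93462951-93463200 for Cd82, chr12:36042479-36042728 for Tspan13 and chr6:125494761-125495010 for Cd9.
Tm4sf1: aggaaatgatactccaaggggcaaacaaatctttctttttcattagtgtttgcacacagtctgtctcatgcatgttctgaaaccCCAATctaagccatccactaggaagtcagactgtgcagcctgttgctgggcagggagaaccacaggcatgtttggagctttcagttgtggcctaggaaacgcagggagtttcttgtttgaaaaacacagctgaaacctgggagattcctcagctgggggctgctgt
Cd82: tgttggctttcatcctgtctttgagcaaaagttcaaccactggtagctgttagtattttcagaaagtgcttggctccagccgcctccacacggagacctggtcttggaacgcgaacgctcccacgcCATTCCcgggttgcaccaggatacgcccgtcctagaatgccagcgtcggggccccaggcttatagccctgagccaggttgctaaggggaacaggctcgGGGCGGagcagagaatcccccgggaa
Tspan13: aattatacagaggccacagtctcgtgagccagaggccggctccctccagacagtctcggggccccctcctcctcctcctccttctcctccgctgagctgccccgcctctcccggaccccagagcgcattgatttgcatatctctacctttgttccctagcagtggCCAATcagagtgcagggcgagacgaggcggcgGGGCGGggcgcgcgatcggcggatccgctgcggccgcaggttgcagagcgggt
Cd9: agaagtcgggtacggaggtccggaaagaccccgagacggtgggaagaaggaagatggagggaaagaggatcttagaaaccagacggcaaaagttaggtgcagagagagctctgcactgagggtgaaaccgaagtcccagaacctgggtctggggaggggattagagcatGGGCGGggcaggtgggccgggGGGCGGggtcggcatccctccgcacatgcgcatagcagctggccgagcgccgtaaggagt

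The Tm4sf1 window was 48.0% G or C and held 1 CpG, the base pair at which mammalian DNA is methylated. The windows of Cd82, Tspan13 and Cd9 were 58.4%, 66.0% and 61.6% G or C and held 14, 21 and 16 CpG. Over 27025 mouse promoters of the same length the medians were 52.0% and 6 CpG. Tm4sf1 thus lay below both medians and the other 3 genes above them. Among the 6 genes not shown, Cd53 (45.2%, 2 CpG) was also below both, Cd63 (48.8%, 6 CpG) was below the median of base composition, and Tspan32 (55.6%) held 1 CpG as well. Motifs known from promoters were searched on both strands, and no 2 matches overlapped in the windows shown. GGGCGG, the GC box, was found in 6 of the 10 windows (Cd9, Cd81, Cd82, Cd151, Cd37 and Tspan13) and in 32.9% of all promoters. CCAAT, another common promoter element, was found in 3 windows (Tm4sf1, Cd53 and Tspan13) and in 34.5% of all promoters. In Tm4sf1 it began 166 bases and in Tspan13 85 bases before the start. CATTCC, the core bound by TEAD factors, stood only in the Cd82 window, 124 bases before the start, against 12.6% of all promoters. AGATAA, bound by GATA factors, stood only in that of Tspan32, on the opposite strand, against 10.3%. TATAAA, the TATA box, was in 0 of the 10 windows and in 13.0% of all promoters. A match describes these letters and says nothing of whether a factor binds there.

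All 10 genes passed the filter on low counts, as did 13413 genes in all. Levels are given as CPM, counts relative to the TMM-scaled library size, and a gene is called where edgeR's quasi-likelihood test gives a p, adjusted over all 13413 genes, of at most 0.05. Of all genes tested, 5.76% were called, 4.26% as higher and 1.5% as lower in aged cells. Among the 10 genes, 1 was called higher (Tm4sf1) and 0 lower, counts from which nothing is read since the choice of the genes used the same difference. Values of the 3 aged and the 3 young libraries did not overlap for 4 of the 10 genes. Aged cells were higher in 3 of them (Tm4sf1, Cd82 and Tspan13), against 19.0% of all genes, and lower in 1 (Cd9), against 17.6%. The median log2 fold change, aged over young, was 0.50 over the 10 genes and 0.04 over all genes tested.

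The libraries held 16452829 to 21918658 counts, and a count of 0 would allow up to 3 counts, or 0.132 to 0.239 CPM, by counting error alone. Young 4 had the fewest counts and a TMM factor of 0.765, against 1.04 to 1.08 in the other 5 libraries. Among the 10 genes, young 4 was below the mean of young 5 and young 6 in the 3 with a transcript GC content above 54% (Cd82, Cd151 and Cd37), at 0.426 to 0.621 of that mean, and at 1.03 to 1.48 of it in the other 7. The limit of 54% parts these 10 genes, and genes outside them did not all follow it. Adgrg1 (56.2% GC, 0.281 of that mean) did, and Kit (48.5%, 0.406) and Tspan14 (51.0%, 0.433) did not. The part of the deviation of young 4 in each difference below was not tested. Of the genes that mark the sorted cells, Kit had 862 to 1033 CPM in the aged and 320.2 to 868 CPM in the young libraries, and Slamf1, which encodes CD150, had 87.6 to 121 CPM in the aged and 62.3 to 66.2 CPM in the young libraries. Ly6a, which encodes Sca-1, averaged 121 ± 50.8 CPM in the aged and 39.9 ± 9.58 CPM in the young libraries and was called (3.04-fold, edgeR quasi-likelihood test, adjusted p = 0.0435), a call kept only without young 4 among the 6 libraries left out (adjusted p up to 0.109). Together with Procr, Hlf, Mecom, Fgd5, Ctnnal1 and Hoxb5 these stem cell genes summed to 1829.9 to 2189 CPM in the aged and 1034 to 1544 CPM in the young libraries. Of the 9, 5 were called higher and 1 lower, against 4.26% higher and 1.5% lower of all genes tested. Among the 6 fits with a library left out, the Procr call was kept in 4. The Mecom, Fgd5 and Ctnnal1 calls were kept in 1 each and the Hoxb5 call in 0. Markers of other cells the gate could hold are given beside the genes they share a cell type with. Summed levels of T-lineage, mast cell and basophil, stromal and erythroid markers overlapped between the groups, and Cd3e, Cd3d and Cd3g were below 1 CPM in all libraries.

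**Figure D1:**
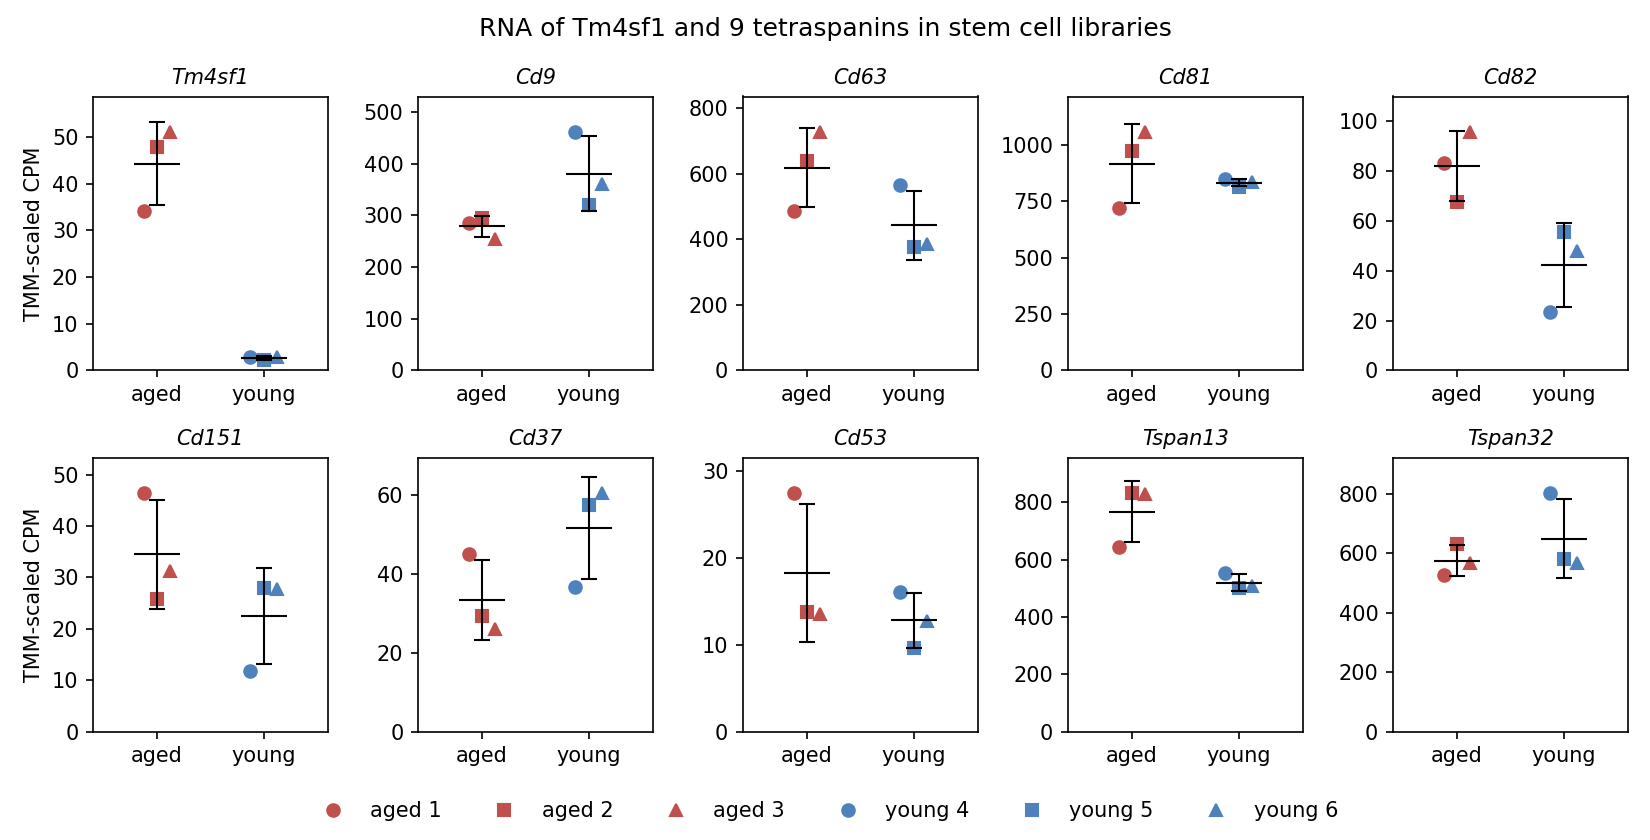
RNA level (vertical axes, TMM-scaled CPM, each from 0) of Tm4sf1 and the 9 tetraspanins in 3 aged and 3 young libraries. Points are libraries, long bars group means and error bars 1 SD. Tm4sf1 averaged 44.3 CPM in the aged and 2.72 CPM in the young libraries, and only Tm4sf1, Cd82 and Tspan13 (aged higher) and Cd9 (aged lower) had groups that did not overlap.

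Tm4sf1 stood apart from the tetraspanins. Its gene lies on chromosome 3 (57287064 to 57301919, minus strand). It had 34.1, 47.8 and 51.0 CPM in aged 1, 2 and 3, against 2.94, 2.24 and 2.98 CPM in young 4, 5 and 6. The groups did not overlap, and every aged library was more than 10 times as high as every young one. These levels come from 712, 926 and 1098 counts in aged libraries and 37, 45 and 68 counts in young libraries, so the young level was low but well above the counting floor. The means were 44.3 ± 8.94 CPM in the aged and 2.72 ± 0.416 CPM in the young libraries (SD, n = 3 each). The log2 fold change was 4.02 ± 0.26 (SE), a 16.3-fold higher level, the 66th from the top by size among 13413 genes. It lay between 3.89 and 4.18 when each library was left out in turn.

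The nearest tested gene on the promoter side of Tm4sf1 is Wwtr1, which encodes the transcriptional coactivator Taz. It lies 153725 bp away on the same strand. Wwtr1 averaged 11.7 ± 0.0954 CPM in the aged and 0.745 ± 0.13 CPM in the young libraries (SD, n = 3 each), with a log2 fold change of 3.98 ± 0.26 and an edgeR adjusted p of 0.00172 (quasi-likelihood test). It was called in 6 of 6 fits with a library left out (adjusted p 0.00362 to 0.021). On the other side the nearest tested gene is Nbea, 1103363 bp away. Nbea averaged 16.2 ± 4.18 CPM in the aged and 10.1 ± 1.55 CPM in the young libraries and was not called (edgeR quasi-likelihood test, adjusted p = 0.165). The L6 gene Tm4sf4 (57425410 to 57441675, plus strand) lies between Tm4sf1 and Wwtr1. It reached at most 0.155 CPM in any library and could not be tested. Of the nearest tested genes beside Tm4sf1, therefore, the one on the promoter side was called and the other was not.

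The profiles most like that of Tm4sf1 over the 6 libraries were sought among 10554 tested genes of at least 5 CPM, by the root mean square difference of centred log2 CPM. They were Sult1a1 (0.232), Wwtr1 (0.272) and Eya4 (0.283). Sult1a1, a sulfotransferase gene, averaged 557 ± 152 CPM in the aged and 43.5 ± 13.5 CPM in the young libraries. Eya4, a phosphatase and transcriptional coactivator gene, averaged 11.1 ± 3.43 CPM in the aged and 0.484 ± 0.212 CPM in the young libraries. The measure compares profiles and not levels, and Sult1a1 in young cells was about as high as Tm4sf1 in aged cells. The profile of Tm4sf1 over these libraries is mainly its difference between the age groups, so genes with a like difference rank first. The 3 values are larger than those of 0.031 to 0.057 for the nearest profiles of Cd9, Cd63 and Cd81 below. Wwtr1 is both the nearest tested gene on the promoter side and a gene of like profile, which adds nothing to its fold change of like size.

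Tm4sf1 is also an endothelial gene, and 10 endothelial markers summed to 105 to 204 CPM in the aged and 45.6 to 99.0 CPM in the young libraries, without overlap. Tie1, Kdr and Cldn5 carried this sum. Of the 8 tested markers, 2 (Kdr and Cldn5) were higher in aged libraries without overlap, 0 were lower and 6 overlapped. Over all genes tested, 19.0% were higher and 17.6% lower without overlap. Kdr averaged 17.3 ± 4.79 CPM in the aged and 6.95 ± 2.62 CPM in the young libraries and was not called (edgeR quasi-likelihood test, adjusted p = 0.0782). Cldn5, a tight junction gene, averaged 32.0 ± 20.0 CPM in the aged and 3.94 ± 0.995 CPM in the young libraries and was the 1 of 8 tested markers called (edgeR quasi-likelihood test, adjusted p = 0.0222). That call was lost without aged 2, young 5 or young 6 (adjusted p up to 0.0885). Cdh5, the defining adhesion molecule of endothelium, had 0.0464 to 0.258 CPM in the aged and 0.159 to 1.27 CPM in the young libraries, and Sox17 was below 1 CPM in all 6. Plvap averaged 3.41 ± 2.34 CPM in the aged and 3.35 ± 2.08 CPM in the young libraries. The markers thus did not move alike, and the part of endothelial cells in the Tm4sf1 difference was not tested. In RNA from pooled cells, more cells carrying a transcript and more RNA per cell cannot be told apart.

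Cd9 and Cd81 are close relatives that bind the same immunoglobulin-family partners, and Cd9 is needed on the mouse egg for fusion with sperm. Cd9 (chromosome 6, 125460266 to 125494755, minus strand) had 286, 295 and 255 CPM in aged 1, 2 and 3, against 461, 320 and 361 CPM in young 4, 5 and 6. All aged libraries lay below all young ones, by a narrow margin between aged 2 and young 5. The means were 278 ± 21.1 CPM in the aged and 381 ± 72.8 CPM in the young libraries (SD, n = 3 each), a log2 fold change of -0.45 ± 0.19 that was not called. Without young 4, its highest library, the log2 fold change was -0.31.

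Cd9 is also abundant in platelets and megakaryocytes. Their 13 markers summed to 579 to 1627 CPM in the aged and 911 to 1501 CPM in the young libraries, with overlap. Of the 12 tested, 2 (Itgb3 and Vwf) were higher and 2 (Pf4 and Ppbp) lower in aged libraries without overlap, and 8 overlapped. The shares over all genes tested were 19.0% higher and 17.6% lower. Itgb3, an integrin chain gene, averaged 81.3 ± 44.5 CPM in the aged and 26.5 ± 10.4 CPM in the young libraries and was not called. Pf4, a platelet chemokine, had 322, 100.5 and 22.9 CPM in aged 1, 2 and 3, against 479, 438 and 530 CPM in young 4, 5 and 6. Pf4 varied widely between aged libraries. Ppbp, another platelet chemokine and the 1 of 12 tested markers called, had 5.47, 6.3 and 6.22 CPM in aged 1, 2 and 3, against 38.7, 21.6 and 20.6 CPM in young 4, 5 and 6 (edgeR quasi-likelihood test, adjusted p = 0.016). Ppbp was nearly level in aged libraries and highest in young 4. Its call was lost without aged 1, aged 2, aged 3 or young 5 (adjusted p up to 0.0748). The part of platelet RNA in the Cd9 difference was not tested. Beyond Cd9, 37832 bp away on the opposite strand, lies Vwf, the gene of von Willebrand factor. Vwf averaged 168 ± 46.7 CPM in the aged and 71.2 ± 17.5 CPM in the young libraries and was not called (edgeR quasi-likelihood test, adjusted p = 0.0508). The profiles most like that of Cd9 were those of Prkdc (0.031), March5 (0.039) and Hnrnpdl (0.040).

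Cd81, found on most blood cells and in released vesicles, had 721, 972 and 1057 CPM in aged 1, 2 and 3, against 849, 815 and 837 CPM in young 4, 5 and 6. The young libraries agreed closely and lay inside the aged range. The means were 917 ± 175 CPM in the aged and 834 ± 17.2 CPM in the young libraries, a log2 fold change of 0.14 ± 0.20. The gene lies on chromosome 7 (143052750 to 143067930, plus strand) and overlaps R74862 on the opposite strand. R74862 averaged 2.80 ± 0.443 CPM in the aged and 2.50 ± 0.876 CPM in the young libraries. Since the libraries carry no strand information, reads from the shared bases cannot be assigned between them, but R74862 is small beside Cd81. The profiles most like that of Cd81 were those of Tfpi (0.041), Kdm5b (0.047) and Mccc1 (0.057).

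Cd63, the tetraspanin of late endosomes, lysosomes and released vesicles, had 488, 640.4 and 727 CPM in aged 1, 2 and 3, against 565, 377 and 386 CPM in young 4, 5 and 6. Aged 2 and 3 lay above all young libraries, and aged 1 lay below young 4. The means were 618 ± 121 CPM in the aged and 443 ± 106 CPM in the young libraries (SD, n = 3 each), a log2 fold change of 0.48 ± 0.25 that was not called. Without young 4 it was 0.68, and in all 6 fits with a library left out it was positive. On the scale of TPM (counts per kb of transcript, scaled to the same total in every library, without the TMM factor) the groups did not overlap, at 962, 1199 and 1425 TPM in aged libraries and 718, 693 and 724 TPM in young libraries. Cd63 thus overlapped between the groups in CPM and not in TPM, young 4 being the library whose place differed. With a GC content and length trend taken out of each library, Cd63 was called as higher (log2 fold change 0.66). The profiles most like that of Cd63 were those of Mpzl1 (0.037), 2310001H17Rik (0.046) and Ctsc (0.056). Cd63 lies on chromosome 10 (128908919 to 128912818, plus strand).

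Cd82 is known from cancer cells as a suppressor of metastasis, and Cd151 as the tetraspanin that holds laminin-binding integrins. Cd82 had 82.9, 67.4 and 95.4 CPM in aged 1, 2 and 3, against 23.3, 55.6 and 47.9 CPM in young 4, 5 and 6. All aged libraries lay above all young ones, and young 4 was the lowest. The means were 81.9 ± 14.1 CPM in the aged and 42.3 ± 16.9 CPM in the young libraries (SD, n = 3 each), a log2 fold change of 0.95 ± 0.33 that was not called. Without young 4 the log2 fold change was 0.64. Cd82 (chromosome 2, 93419102 to 93462950, minus strand) overlaps the rows Gm10804, Mir7001 and Mir684-1 of the table, of which the largest, Mir684-1, averaged 6.70 ± 1.04 CPM in the aged and 11.3 ± 2.50 CPM in the young libraries.

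Cd151 (chromosome 7, 141467362 to 141471481, plus strand) had 46.4, 25.9 and 31.3 CPM in aged 1, 2 and 3, against 11.8, 27.9 and 27.8 CPM in young 4, 5 and 6. Aged 2 lay below young 5 and 6, and aged 1 and young 4 were the extremes. The means were 34.5 ± 10.6 CPM in the aged and 22.5 ± 9.22 CPM in the young libraries, a log2 fold change of 0.61 ± 0.37. Without young 4 it was 0.29. Cracr2b, a calcium channel regulator gene 760 bp before Cd151 on the same strand, averaged 63.7 ± 23.9 CPM in the aged and 23.2 ± 6.01 CPM in the young libraries. It was called as higher (edgeR quasi-likelihood test, adjusted p = 0.0455), a call lost with any 1 of the 6 libraries left out (adjusted p 0.059 to 0.135).

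Cd37 and Cd53 are tetraspanins of leukocytes, Cd37 most of all of mature B cells. Cd37 had 45.0, 29.4 and 25.9 CPM in aged 1, 2 and 3, against 36.7, 57.5 and 60.4 CPM in young 4, 5 and 6. Aged 1 lay above young 4, and the other 2 aged libraries lay below all young ones. The means were 33.4 ± 10.2 CPM in the aged and 51.5 ± 13.0 CPM in the young libraries (SD, n = 3 each), a log2 fold change of -0.63 ± 0.28 that was not called. Without young 4 it was -0.84, and with a GC content and length trend taken out it was -1.05 and called. Cd37 lies on chromosome 7 (45233632 to 45239115, minus strand), 13 bp from Tead2 on the opposite strand.

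Cd53 (chromosome 3, 106758861 to 106790149, minus strand) had 27.4, 13.8 and 13.5 CPM in aged 1, 2 and 3, against 16.0, 9.62 and 12.7 CPM in young 4, 5 and 6. Aged 1 was the highest, and the rest overlapped. The means were 18.2 ± 7.93 CPM in the aged and 12.8 ± 3.18 CPM in the young libraries, a log2 fold change of 0.52 ± 0.35, and without aged 1 it was 0.10. Of the B-lineage markers, Cd79b had 58.0 to 85.1 CPM in the aged and 73.2 to 133 CPM in the young libraries, with overlap, and Cd79a, Ms4a1, Ebf1, Pax5 and Vpreb1 were below 1 CPM in all libraries. Cd79a was higher in aged libraries without overlap, at 0.716 ± 0.176 CPM against 0.0703 ± 0.0662 CPM, and was not called. Its young level rests on 1, 0 and 3 counts. The other 2 tested B-lineage markers overlapped. The 10 macrophage markers summed to 43.3 to 45.2 CPM in the aged and 47.2 to 78.3 CPM in the young libraries, without overlap. Of the 10, 4 (Vcam1, Mrc1, C1qb and C1qc) were lower in aged libraries without overlap, 1 (Mertk) was higher and 5 overlapped. Among all genes tested, 17.6% were lower and 19.0% higher without overlap. Vcam1 averaged 3.81 ± 1.37 CPM in the aged and 8.88 ± 1.67 CPM in the young libraries. The highest young sum was that of young 4, in which Cd68 alone had 39.8 CPM, against 17.6 and 16.9 CPM in young 5 and 6. Mertk, the 1 of these 10 called, went the other way, at 3.91 ± 0.598 CPM in the aged and 1.07 ± 0.241 CPM in the young libraries (edgeR quasi-likelihood test, adjusted p = 0.0259), a call kept only without young 4 (adjusted p up to 0.102). The part of these cells in the Cd37 and Cd53 values was not tested.

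Tspan13 and Tspan32 were the abundant members of the family that carry no CD number. Tspan13 (chromosome 12, 36014555 to 36042478, minus strand) had 645, 832 and 828 CPM in aged 1, 2 and 3, against 553, 499.9 and 507 CPM in young 4, 5 and 6. All aged libraries lay above all young ones. The means were 768 ± 107 CPM in the aged and 519.9 ± 28.9 CPM in the young libraries (SD, n = 3 each), a log2 fold change of 0.56 ± 0.18 that was not called. It was between 0.48 and 0.67 with each library left out, and DESeq2 called it as higher at 0.54.

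Tspan32, a tetraspanin of blood cells that is known from mouse platelets, had 526, 629 and 568 CPM in aged 1, 2 and 3, against 801, 579 and 566 CPM in young 4, 5 and 6. Only young 4 stood outside the aged range. The means were 575 ± 51.7 CPM in the aged and 649 ± 132 CPM in the young libraries, a log2 fold change of -0.18 ± 0.21, and without young 4 it was -0.02. The gene lies on chromosome 7 (143005046 to 143019485, plus strand), 33265 bp before Cd81 on the same strand, so 2 of the more abundant tetraspanins are near neighbours. Neither was called.

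**Figure D2:**
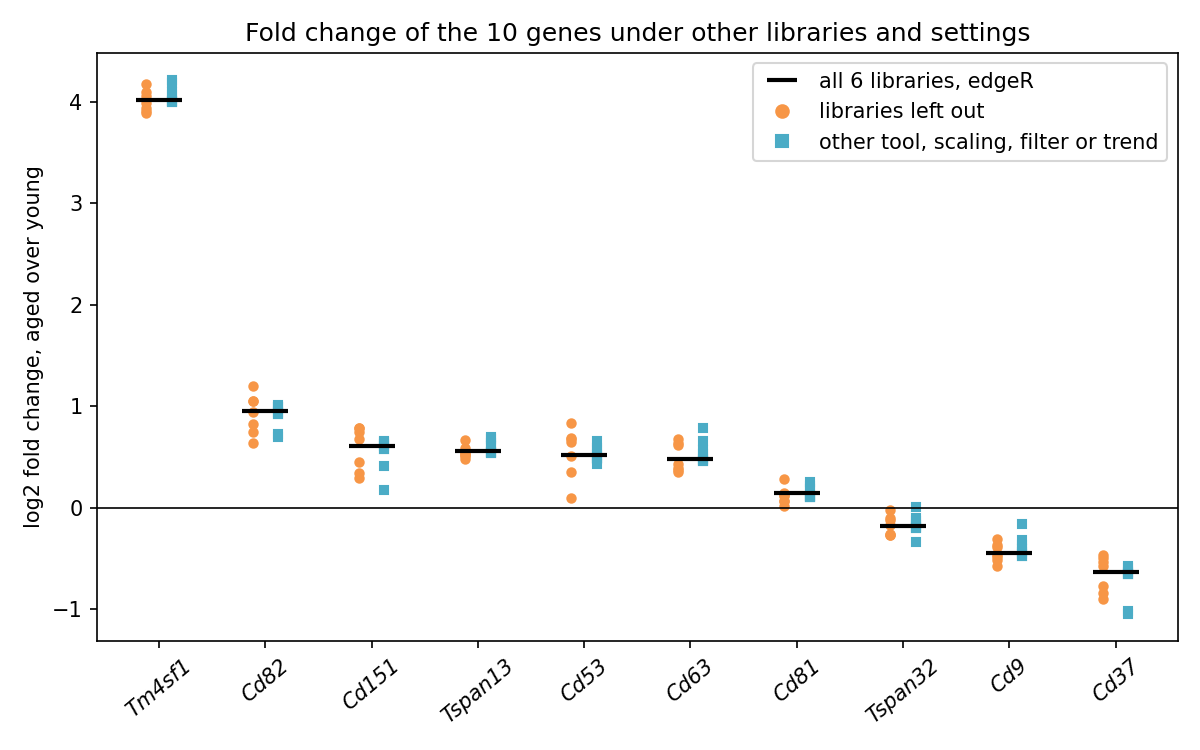
Log2 fold change, aged over young (vertical axis), of the 10 genes under other choices. Black bars give edgeR's fit of all 6 libraries, circles fits with libraries left out and squares other tools, scalings, filters or a GC and length trend. Tm4sf1 stayed near 4 throughout, and Tspan32 (main value -0.18) reached 0.01 under quality weights.

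Levels can be compared between genes only per length, and on the TPM scale 5 of the 10 genes were far above the others. In aged libraries the order was Cd81 (1409.6 ± 261 TPM), Cd63 (1196 ± 232 TPM), Tspan13 (930.1 ± 118 TPM), Tspan32 (579.7 ± 36.8 TPM), Cd9 (546 ± 34.4 TPM), Cd82 (92.6 ± 17.9 TPM), Tm4sf1 (54.2 ± 10.6 TPM), Cd151 (40.2 ± 13.2 TPM), Cd37 (28.7 ± 9.18 TPM) and Cd53 (15.2 ± 6.91 TPM). Among neighbours in that order, libraries did not overlap between Tspan13 and Tspan32, Cd9 and Cd82, and Cd82 and Tm4sf1, and they overlapped between all other neighbours. In young libraries the order was Cd81 (1101 ± 212 TPM), Cd63 (712 ± 17.0 TPM), Cd9 (626 ± 52.6 TPM), Tspan32 (548 ± 13.9 TPM), Tspan13 (538 ± 84.9 TPM), Cd82 (43.0 ± 22.6 TPM), Cd37 (39.2 ± 16.2 TPM), Cd151 (23.7 ± 12.7 TPM), Cd53 (8.85 ± 1.32 TPM) and Tm4sf1 (2.84 ± 0.623 TPM). There, libraries overlapped between Tspan32 and Tspan13, Cd82 and Cd37, Cd37 and Cd151, and Cd151 and Cd53, and between no other neighbours. Tm4sf1 was thus last of the 10 in young cells and the seventh in aged cells, and Cd9 was the third in young cells and the fifth in aged cells.

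**Figure D3:**
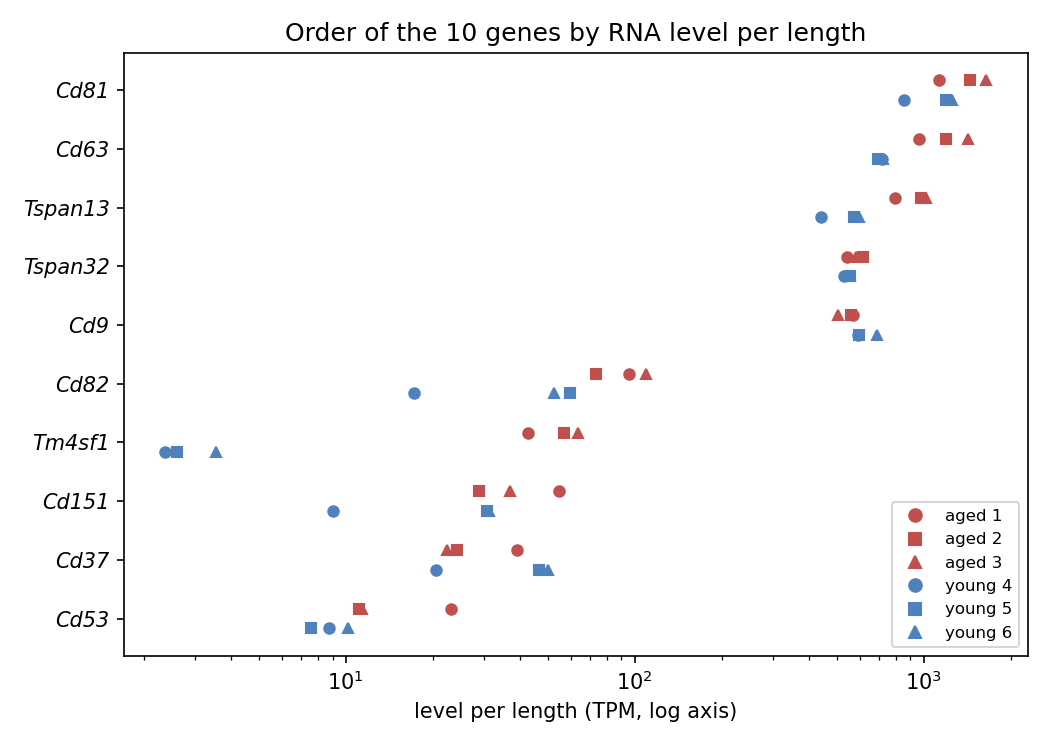
RNA level per length (horizontal log axis, TPM) of the 10 genes, ordered by the mean of the aged libraries, with a symbol for each library. Cd81, Cd63, Tspan13, Tspan32 and Cd9 lay above the other 5 genes in all 6 libraries, and Tm4sf1 lay at 42.7 to 63.4 TPM in aged and 2.37 to 3.55 TPM in young libraries.

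The 31 tetraspanin genes of the table summed to 5225, 5958 and 6501 TPM in aged 1, 2 and 3, against 3781, 4627 and 4814 TPM in young 4, 5 and 6. Every aged library lay above every young one on this scale. Summed as TMM-scaled CPM the groups overlapped, at 3766, 4442 and 4602 CPM in aged 1, 2 and 3, against 4081, 3547 and 3581 CPM in young 4, 5 and 6. The 9 tetraspanins followed here held 80.7% to 82.9% of the TPM sum in aged and 81.2% to 84.6% in young libraries, so the ranges of their share overlapped. The largest other contribution was that of Tspan4, at 404 ± 32.0 TPM in aged libraries.

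Of the other 22 tetraspanin genes, 16 were tested, and 1 was called higher, 1 lower and 14 neither, against 4.26% higher and 1.5% lower of all genes tested. The remaining 6 (Tspan1, Tspan10, Tspan11, Tspan15, Upk1a and Prph2) had too few counts. Fold changes were positive in 11 and negative in 5, with a median log2 fold change of 0.36, against 0.04 over all genes tested. The list was chosen with earlier results of these data known, so these counts are a description. Tspan17, which belongs to the group that escorts the protease Adam10, rose to 13.7 ± 1.42 CPM in aged libraries, against 6.98 ± 1.02 CPM in young libraries (1.95-fold, edgeR quasi-likelihood test, adjusted p = 0.0487). That call was lost without any 1 of the 6 libraries (adjusted p 0.053 to 0.189). Adam10 itself was not called, at 431 ± 59.5 CPM in the aged and 453 ± 56.2 CPM in the young libraries. Tspan7, known best from neurons, fell to 0.276 ± 0.035 CPM in aged libraries, against 2.04 ± 1.04 CPM in young libraries (log2 fold change -2.88 ± 0.49, edgeR quasi-likelihood test, adjusted p = 0.0276). These are 5, 6 and 6 counts in aged libraries and 18, 29 and 74 counts in young libraries, so the aged level was close to the counting floor. The Tspan7 call was lost without aged 1, aged 2, aged 3, young 5 or young 6 (adjusted p up to 0.112) and was kept without young 4.

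Tspan3, Tspan4 and Tspan31 were the most abundant tetraspanins of this list, and none of them was called. Tspan3 averaged 277 ± 21.2 CPM in the aged and 218 ± 16.2 CPM in the young libraries, Tspan4 271 ± 21.2 CPM in aged and 229 ± 42.5 CPM in young, and Tspan31 160.2 ± 14.8 CPM in aged and 147 ± 20.0 CPM in young. Tspan14, another Adam10 escort, averaged 112 ± 37.4 CPM in the aged and 63.1 ± 26.2 CPM in the young libraries. Tspan6 averaged 42.6 ± 9.41 CPM in the aged and 64.7 ± 35.2 CPM in the young libraries, with young 4 alone at 105 CPM. Tspan12, Tspan8 and Tspan5 had log2 fold changes of 0.81 ± 0.61, 0.54 ± 0.22 and -0.62 ± 0.29. Relatives of Tm4sf1 itself (Tm4sf4, Tm4sf5, Tm4sf19 and Tm4sf20) were at most 0.155 CPM in any library and 0 of the 4 could be tested, so Tm4sf1 was the only L6 gene of these 5 to pass the filter.

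**Figure D4:**
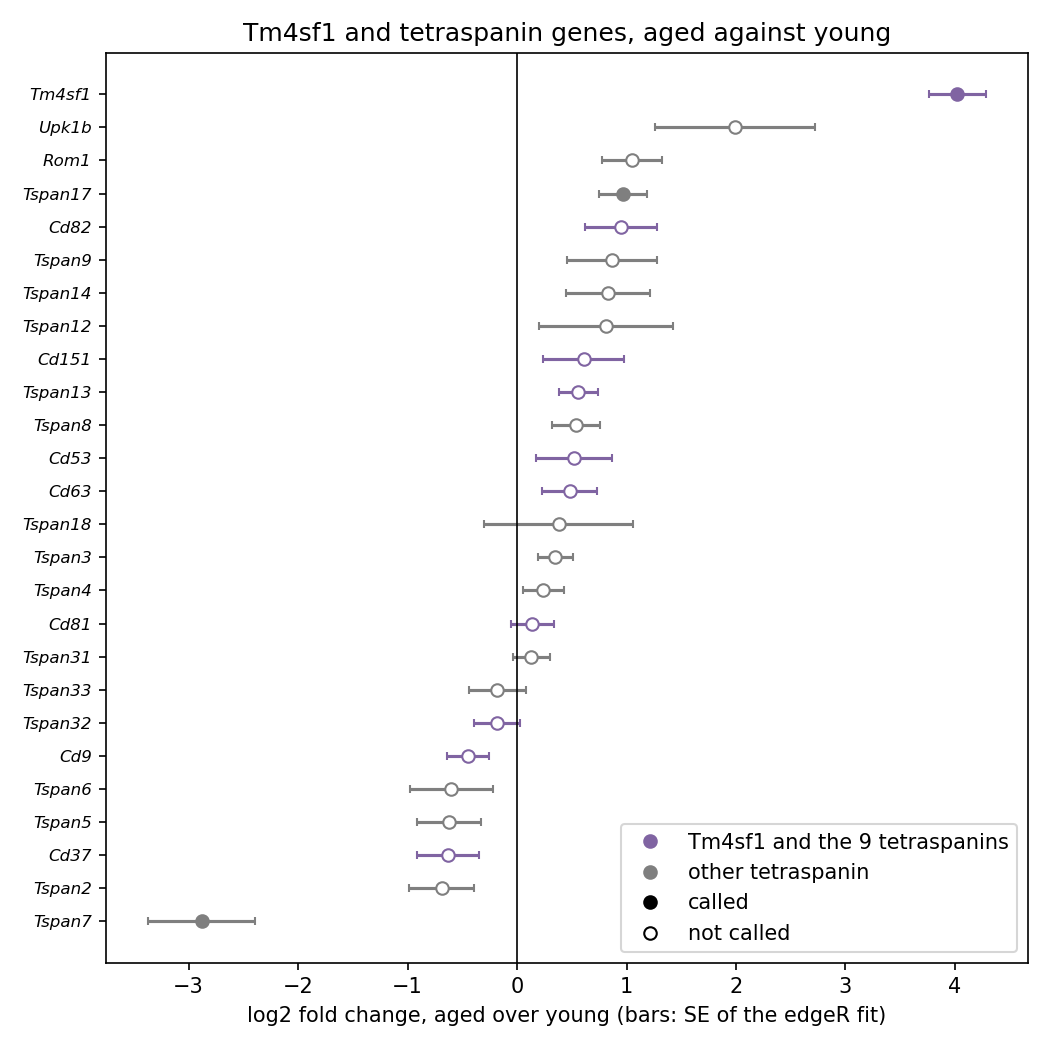
Log2 fold change, aged over young (horizontal axis), with the SE of the edgeR fit (bars) for the 26 tested genes, Tm4sf1 and 25 tetraspanins. Filled points were called, namely Tm4sf1 (4.02), Tspan17 (0.97) and Tspan7 (-2.88), and open points were not.

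Genes whose products are known to bind tetraspanins come next, a list chosen with earlier results of these data known. Its counts are therefore a description. Of 19 such genes, 17 were tested, and 3 were called higher, 0 lower and 14 neither. Of all genes tested, 4.26% were called higher and 1.5% lower. The median log2 fold change was 0.56 over the 17 and 0.04 over all genes tested. At an unadjusted p under 0.05 there were 5 higher and 1 lower of the 17, against 13.9% higher and 11.1% lower of all genes tested. Epcam, an adhesion molecule that binds Cd9, rose to 16.2 ± 7.76 CPM in aged libraries, against 3.04 ± 1.20 CPM in young libraries (5.39-fold, edgeR quasi-likelihood test, adjusted p = 0.0320). Ptgfrn, an immunoglobulin-family partner of Cd9 and Cd81, rose to 1.92 ± 0.829 CPM in aged libraries, against 0.243 ± 0.138 CPM in young libraries (8.29-fold, adjusted p = 0.0361 by the same test), on only 5, 4 and 3 counts in young libraries. Itga3, an integrin chain held by Cd151, rose to 4.66 ± 1.77 CPM in aged libraries, against 1.13 ± 0.349 CPM in young libraries (4.06-fold, edgeR quasi-likelihood test, adjusted p = 0.0409). The groups did not overlap in any of these 3 genes. The Epcam and Ptgfrn calls were lost without aged 2, aged 3, young 5 or young 6 (adjusted p up to 0.0998 and 0.129), and the Itga3 call without any 1 of the 6 libraries (adjusted p 0.0566 to 0.149).

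The most abundant partners were not called. Sdcbp, which encodes syntenin, a Cd63-binding protein, averaged 1478 ± 239 CPM in the aged and 1391 ± 543 CPM in the young libraries. Adgrg1, an adhesion receptor that binds Cd9 and Cd81, averaged 1795 ± 786 CPM in the aged and 865 ± 477 CPM in the young libraries. Kit, the stem cell factor receptor, averaged 976 ± 99.0 CPM in the aged and 632 ± 282 CPM in the young libraries. In Adgrg1 and Kit young 4 was by far the lowest library, at 319.8 and 320.2 CPM. The integrin chain genes Itga6 and Itgb1 were not called either and went opposite ways, each without overlap. Itga6 averaged 145 ± 16.7 CPM in the aged and 93.5 ± 1.91 CPM in the young libraries. Itgb1 averaged 230.2 ± 12.4 CPM in the aged and 295 ± 25.7 CPM in the young libraries.

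Genes that sort cargo into multivesicular bodies and release vesicles were mostly not called. All 15 were tested, and 0 were called higher, 1 lower and 14 neither, against 4.26% higher and 1.5% lower of all genes tested. At an unadjusted p under 0.05 there were 1 higher and 2 lower of the 15, near the 13.9% higher and 11.1% lower of all genes, and the median log2 fold change was 0.04. Rab27b, a small GTPase that docks vesicles at the plasma membrane, fell to 84.4 ± 12.2 CPM in aged libraries, against 174 ± 17.0 CPM in young libraries (log2 fold change -1.04 ± 0.18, edgeR quasi-likelihood test, adjusted p = 0.0259). It had 97.5, 82.4 and 73.4 CPM in aged 1, 2 and 3, against 187, 155 and 181 CPM in young 4, 5 and 6, without overlap. The call was lost without aged 2, aged 3, young 5 or young 6 (adjusted p up to 0.117). Its relative Rab27a was not called, at 195 ± 8.62 CPM in the aged and 164 ± 27.7 CPM in the young libraries. Neither was Vps4b, an ATPase that recycles the sorting machinery, at 247 ± 22.7 CPM in the aged and 278 ± 43.3 CPM in the young libraries, nor the membrane scaffold gene Flot1, at 182 ± 15.9 CPM in the aged and 124 ± 19.1 CPM in the young libraries.

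The series concerns the microRNA miR-126, so the 3′ untranslated regions of the 10 genes were searched for the seed match of its 3p strand. That mature strand is shown from RefSeq (GRCm38.p6, chr2:26591402-26591423, plus strand) with its seed, bases 2 to 8, in capitals.
mmu-miR-126a-3p: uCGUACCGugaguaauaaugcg

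The letters that pair with this seed, CGGTACG, were in the 3′ untranslated region of 0 of the 10 genes and of 24 of 12450 genes (0.193%). Matches to the seeds of mmu-miR-126b-3p and mmu-miR-126b-5p were likewise in 0 of the 10 and in 0.506% and 11.8% of all genes. This says only that the letters do not occur in the annotated region of the longest transcript. The seed of the other mature strand, mmu-miR-126a-5p, was not searched.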

How the data were processed

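RNA of 6 samples of sorted mouse stem cells was sequenced, 3 aged and 3 young. Libraries were made with the SMART-Seq v4 kit, per the labels' protocols, which does not mark strand, and the submitters' processing notes name mm10 with Trimmomatic, HTSeq 0.11.1, STAR 2.6.0 and edgeR. Annotation and counting mode: not given in the sources used here. Whole-number counts per gene, not scaled, with coordinates, length in kb and strand, were deposited by the authors. Sample titles gave the age group and the replicate number.

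Counts were fitted by edgeR 4.0.16 under R 4.3.3 (filterByExpr, TMM, glmQLFit, glmQLFTest; age the only term), with Benjamini-Hochberg adjustment over 13413 of 24091 genes, which held 99.92% of counts, at a threshold of 0.05. SE is the log2 fold change over the root of F. TPM was computed from the deposited counts and lengths. The fit was tested on simulated data. GC content and untranslated regions came from GENCODE M21 and promoters and microRNAs from RefSeq.

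The 10 genes and all lists were chosen with earlier results of these data known. Named were the 10 genes; called genes and the most abundant uncalled ones of each list; the 3 genes of most similar profile for Tm4sf1, Cd9, Cd63 and Cd81; and nearest neighbours. Adam10, Itga6, Itgb1, Pf4, Ppbp, Itgb3 and the stem cell, macrophage, endothelial, stromal, erythroid and B-cell markers were added after their values were seen. Alternatives were 2 other scalings, 2 filters, DESeq2 1.42.0, limma-voom (limma 3.58.1) with and without quality weights, a GC content and length trend, and libraries left out. Some marker genes are not reported here.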

Additional observations from a re-analysis of the deposited data

How the results depend on the processing

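No paired analysis was possible because the aged and young samples share no replicate number. Of 150 refits of the 10 genes' fold changes, 141 kept direction and call, 8 passed the threshold and 1 reversed: Tspan32 was 0.01 under quality weights. The number of the 10 genes called was 1, and 2 with DESeq2, 5 with quality weights, 4 with a GC content and length trend and 1 with any library left out. Over all genes 772 were called (571 higher, 201 lower), and 421 (343 higher, 78 lower) at 5 CPM or more, 2181 (1255 higher, 926 lower) with DESeq2, 4094 (2326 higher, 1768 lower) with quality weights, 1383 (691 higher, 692 lower) with the GC and length trend, and 74 to 1029 with a library left out. Other tetraspanins called numbered 2, and 1 under median-ratio scaling or no filter, 0 at 5 CPM or more or without aged 2 and young 4, 4 with DESeq2, 8 with quality weights and 0 to 1 with a library left out. Partners called numbered 3, and 1 at 5 CPM or more, 6 with DESeq2, 10 with quality weights and 0 to 4 with a library left out. Vesicle genes called numbered 1, and 2 with DESeq2, 4 with quality weights and 0 to 1 with a library left out. The order by level placed 6 of 10 genes alike without length, and 8 to 10 with a library left out. Tspan6 was 0.02 under quality weights, against -0.60, and Sdcbp was -0.01, -0.08 and -0.06 without aged 2, young 5 or young 6, against 0.09 and up to 0.44, its value without young 4. The causes were not tested. The median of all genes was 0.04, -0.08 with the trend and 0.27 without a filter. Depth limits Tspan7, Ptgfrn and the L6 relatives.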
